A study of Mus musculus with 6 samples.

Results

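ISG15 is a small ubiquitin-like protein that interferons induce, and the 5 genes described here are Isg15 itself, Uba7, Ube2l6 and Herc6, which attach it to other proteins, and Usp18, which takes it off. They were taken by gene symbol from the deposited table of all libraries, where each has 1 line among 21914 symbols, and all 5 passed the filter that kept 10818 genes (at least 1 FPKM in at least 2 libraries). FPKM scales a level by gene length and library. The values are RNA levels of sorted dendritic cells from C57BL/6 mice that were germ-free (GF) and Rag KO, so that every group, controls included, lacked its own T and B lymphocytes and its microbes. In peripheral lymph node (PLN) and in spleen, 1 library each came from un-injected mice, from mice given FACS-sorted naïve CD4 T cells and from mice given Tregs, the last 2 taken 1 week after the transfer. The design asks what each kind of T cell did to the dendritic cells of a host that had none. Which Rag gene was deleted, the age and sex of the mice, the number of mice behind a library, the gate, and whether the tissues came from the same mice are stated in none of the sources used here. Values are listed in the order un-injected, naive, Treg unless a sentence names the library. With 1 library per group no value has a replicate error, and no difference between 2 libraries has a replicate check.

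Attachment of ISG15 runs like that of ubiquitin. UBA7, the activating enzyme (E1), charges ISG15 and passes it to UBE2L6, the conjugating enzyme (E2), and HERC6, the main ligase (E3) for ISG15 in mouse, joins it to a target. USP18 cleaves ISG15 from its targets and also binds the interferon receptor chain IFNAR2, where it dampens type I interferon signalling. In antigen-presenting cells all 5 genes are textbook targets of interferon, whose signal reaches genes through the interferon-stimulated response element. Of their products, ISG15 and the enzymes that attach it limit virus replication, and free ISG15 is also secreted.

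The part of ISG15 that becomes joined to targets is the end of its coding sequence, shown because it is the site that E1, E2, E3 and USP18 act on. The mouse coding sequence has 161 codons over 2 exons. Its last 48 bases lie on chromosome 4 from 156199587 to 156199634 on the minus strand of GRCm38 (GENCODE M21), and capitals mark the 6 codons of the conjugation tail. The 6 codons after the tail belong to the precursor.
Isg15 tail: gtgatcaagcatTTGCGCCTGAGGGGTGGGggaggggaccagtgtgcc

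Promoter sequence from RefSeq (GRCm38.p6) was at hand for 4 of the 5 genes, all but Usp18, and the 150 bases just before the RefSeq transcript start are shown since the genes share a known inducer. The core of the interferon-stimulated response element was searched, as GAAA followed after any 2 bases by a second GAAA, on both strands of the 250 bases before the RefSeq start, and capitals mark its matches. The shown stretches are chr4:156200819-156200968 on the minus strand for Isg15, and, on the plus strand, chr9:107975355-107975504 for Uba7, chr2:84798678-84798827 for Ube2l6 and chr6:57580842-57580991 for Herc6.
Isg15: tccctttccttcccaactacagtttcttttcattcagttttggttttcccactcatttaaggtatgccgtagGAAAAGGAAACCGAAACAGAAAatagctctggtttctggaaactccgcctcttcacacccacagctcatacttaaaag
Uba7: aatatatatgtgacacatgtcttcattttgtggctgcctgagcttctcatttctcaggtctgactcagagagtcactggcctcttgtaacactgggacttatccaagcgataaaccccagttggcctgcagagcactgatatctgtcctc
Ube2l6: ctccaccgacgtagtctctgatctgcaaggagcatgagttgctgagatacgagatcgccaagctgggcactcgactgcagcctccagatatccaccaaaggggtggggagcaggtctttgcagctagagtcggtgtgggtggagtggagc
Herc6: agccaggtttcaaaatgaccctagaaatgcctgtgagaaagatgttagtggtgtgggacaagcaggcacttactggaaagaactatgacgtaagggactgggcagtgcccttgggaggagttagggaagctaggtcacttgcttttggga

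The Isg15 promoter held 3 overlapping matches of this core, all on the strand of the gene, the first from 78 to 69 and the last from 66 to 57 bases before the start. The windows of Uba7, Ube2l6 and Herc6 held 0. Among all 32851 RefSeq promoter windows 978 (2.98%) hold it. The core of the gamma-activated site, TTCNNNGAA, was in 0 of the 4 windows and in 7.02% of all windows. These are matches of letters and say nothing of binding by a factor.

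The gene bodies lie on mm10 (GRCm38) as follows. Isg15 (ENSMUSG00000035692) is on chromosome 4 from 156199424 to 156200818, and Ube2l6 (ENSMUSG00000027078) is on chromosome 2 from 84798828 to 84810335. Neither overlaps another annotated gene. Usp18 (ENSMUSG00000030107) is on chromosome 6 from 121245906 to 121270917 and has a long noncoding gene, Gm44148, on its other strand. Uba7 (ENSMUSG00000032596) is on chromosome 9 from 107975505 to 107984060 within the coding gene Gm20661 of the same strand, and its deposited locus of 73279 bases takes in 5 other coding genes. Herc6 (ENSMUSG00000029798) is on chromosome 6 from 57581000 to 57664632, overlaps Gm45193 and Gm19244, and its deposited locus takes in Ppm1k. How reads of overlapping genes were assigned is not given, so the Uba7 and Herc6 levels are uncertain to that extent.

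The summed values were 552580 to 861260 FPKM per library, and 9936 to 10383 genes reached 1 FPKM. Conventional dendritic cell markers were present in every library, and the 8 genes of that list summed to 12711 to 41866 FPKM. Most of this came from Cd74 (9886 to 25602 FPKM) and H2-Ab1 (2100 to 15411 FPKM). Against the un-injected lymph node library, Itgax and H2-Ab1 were at least 2-fold higher in the naive lymph node library. Flt3, Zbtb46 and Batf3 were at least 2-fold lower there. The 7 measured T cell genes summed to at most 10.01 FPKM. Other lists also differed between libraries. In lymph node the 10 monocyte genes summed to 45.3, 2042 and 297 FPKM, and to 530, 244 and 247 FPKM in spleen. The 10 neutrophil genes summed to 838 FPKM in the un-injected spleen library and to at most 24.2 FPKM in the others, so this library stands apart. The 8 genes of migratory dendritic cells summed to 15063, 2385 and 5977 FPKM in lymph node and to 567, 765 and 476 FPKM in spleen. The 10 plasmacytoid dendritic cell genes summed to 240, 427 and 355 FPKM in lymph node and to 188, 132 and 120 FPKM in spleen. Bst2, also on the list of proteins that carry ISG15, gave 175, 349 and 194 FPKM of the lymph node sums. Of the 10 genes, 2 were at least 2-fold higher and 5 at least 2-fold lower in the naive than in the Treg lymph node library. Against the un-injected lymph node library, 4 were at least 2-fold higher and 0 lower in the naive library. In spleen the same comparison had 0 higher and 5 lower.

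**Figure D1:**
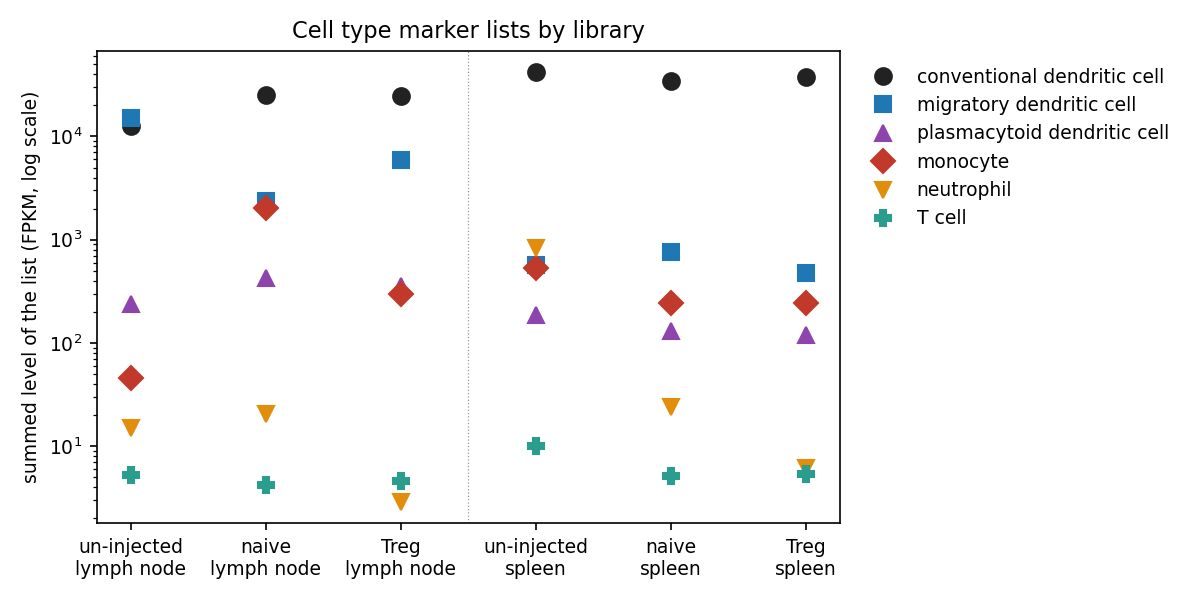
Summed level of marker lists (FPKM, log axis) in each of the 6 libraries, 1 point per list and library. The naive lymph node library has the highest monocyte sum (2042 FPKM), the un-injected spleen library the highest neutrophil sum (838 FPKM), and the migratory list is higher in each lymph node library than in any spleen library.

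Isg15, the modifier, was highest in the naive libraries of both tissues. In lymph node its level was 83.8 FPKM without transfer, 983 FPKM after naive T cells and 87.6 FPKM after Tregs. In spleen the same 3 states gave 95.01, 238 and 71.8 FPKM. The naive values do not overlap the other 4, which lie close together between 71.8 and 95.01 FPKM, and the naive lymph node library stands far above the naive spleen library. Isg15 is the 1 gene of the 5 with this pattern, which 4.99% of all tested genes show. It ranked at percentile 99.03 of the filtered genes in the naive lymph node library and between 89.7 and 96.8 in the others.

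Uba7, the E1 enzyme, followed the tissue more than the transfer. Lymph node levels were 152, 113 and 107 FPKM. In spleen it was at 34.7, 57.6 and 36.6 FPKM. All lymph node values lie above all spleen values, and the un-injected library is the highest in lymph node but the lowest in spleen.

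Ube2l6, the E2 enzyme, was the most abundant of the enzymes in lymph node. Lymph node levels were 314, 282 and 136 FPKM. Spleen levels were 51.4, 71.4 and 26.3 FPKM. The Treg library is the lowest in each tissue, as for Usp18 and, narrowly in spleen, Herc6. The lowest lymph node value of Ube2l6 is still above its highest spleen value.

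Herc6, the E3 ligase, was the least abundant of the 5 genes in each library. It was at 34.9, 51.9 and 25.7 FPKM in lymph node and at 8.14, 20.7 and 8.02 FPKM in spleen. The naive library is the highest in each tissue, as for Isg15 and Usp18 (10.9% of all genes), and the un-injected and Treg spleen values are nearly equal.

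Usp18, the protease, had the same order in both tissues, naive above un-injected above Treg, as did Herc6. In lymph node it was at 66.1, 119 and 46.6 FPKM. In spleen it was at 23.4, 32.4 and 16.7 FPKM. Every lymph node value was above every spleen value.

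**Figure D2:**
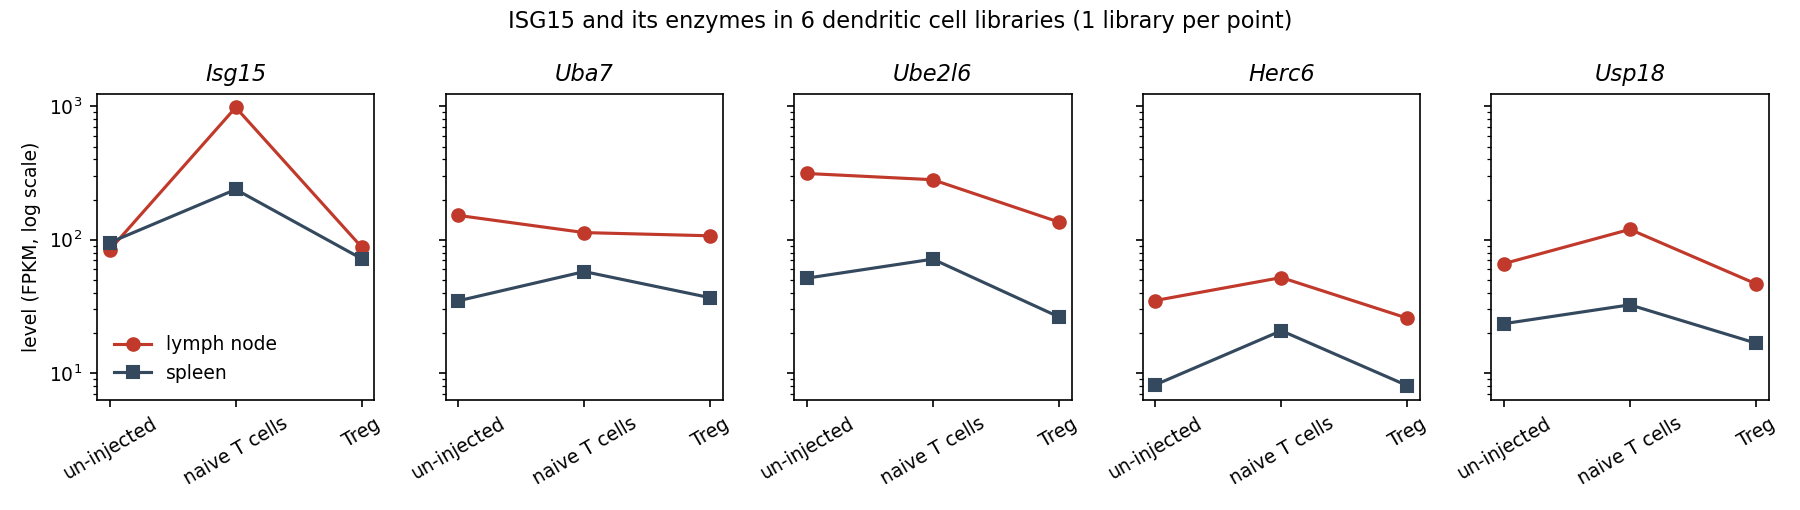
Level of each gene (FPKM, log axis) against the transfer, 1 library per point, red circles for lymph node and dark squares for spleen, with lines joining the libraries of a tissue. Isg15 peaks in the naive libraries, at 983 FPKM in lymph node and 238 FPKM in spleen, and for the other 4 genes the lymph node line lies above the spleen line throughout.

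Isg15 was higher after transfer of naive T cells than without transfer in both tissues, and in lymph node the enzymes differed by less than 2-fold. Isg15 was 11.7-fold higher in lymph node and 2.5-fold higher in spleen, where a fold is a ratio of FPKM + 0.5. At 2-fold or more it was the only 1 of the 5 genes higher in lymph node, against 16.9% of all genes. In spleen Isg15 and Herc6 (2.46-fold) were, against 4.5%, and 1.21% of all genes passed in both tissues, as Isg15 did. Above 1 in both tissues were Isg15, Herc6 and Usp18, 3 of 5, against 21.5% of all genes. Ratios of the other genes in lymph node were 1.80-fold for Usp18, 1.48-fold for Herc6, 0.90-fold for Ube2l6 and 0.74-fold for Uba7. In spleen all 5 were higher in the naive library than in the un-injected and the Treg library, a pattern of 28.4% of all genes, with Uba7 at 1.65-fold, Ube2l6 at 1.39-fold and Usp18 at 1.38-fold over un-injected. The median log2 ratio of the 5 genes was 0.57 in lymph node and 0.72 in spleen, where all genes had medians of -0.00414 and -0.04. Since each library is a bulk sample, fewer cells of a type and less RNA per cell cannot be told apart. The monocyte list was also higher in lymph node, where all 9 of its 10 genes that passed the filter were at least 2-fold higher, and was lower in the naive spleen library, where 7 were at least 2-fold lower. Ly6c2, a defining monocyte gene, was at 7.51 FPKM without and 1119 FPKM with naive T cells in lymph node, but at 59.9 and 10.99 FPKM in spleen. None of the 9 was at 0 in a library, and the part of these cells in the Isg15 values was not tested.

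A limma fit to all 6 libraries had terms for transfer and tissue, with 2 residual degrees of freedom. Its SE and p use the variance of each gene as moderated by limma over all genes. On the log2(FPKM + 1) scale the difference of naive from un-injected was 2.43 ± 0.56 (SE) for Isg15. It was 0.90 ± 0.31 for Herc6, 0.65 ± 0.29 for Usp18, 0.16 ± 0.29 for Ube2l6 and 0.14 ± 0.36 for Uba7. After Benjamini-Hochberg adjustment over all genes 0 of 5 passed 0.05, with limma adjusted p between 0.661 and 0.92, and 0 of all genes did (0%). Isg15 and Herc6 had an unadjusted p under 0.05, as 7.26% of all genes did. The Isg15 difference depended on single libraries. It was 1.43 without the naive lymph node library (limma adjusted p = 0.9995) and 1.76 without the un-injected lymph node library (limma adjusted p = 0.922). It passed without the un-injected spleen library (3.10 ± 0.55, limma adjusted p = 0.0493) and without the naive spleen library (3.42 ± 0.39, limma adjusted p = 0.0194), fits in which 188 and 382 genes passed in all. In the authors' deposited table of this comparison in lymph node Isg15 had a log2 fold change of 3.55 with p = 0.0016 and q = 0.467 and carried their mark of 2-fold at p of 0.01 or less, as 3.46% of the loci tested there did. In the authors' deposited table for spleen it had 1.33 with p = 0.159 and q = 0.999 and was not marked. The mark was on 0.104% of the loci of that table.

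All 5 genes were higher after naive T cells than after Tregs in both tissues, except that Uba7 in lymph node turns lower with library totals (log2 ratio -0.09 against 0.08), and this comparison leaves out the un-injected libraries. A ratio above 1 in both tissues was found for 27% of all genes. Isg15 was 11.2-fold higher in lymph node and 3.30-fold in spleen, and Ube2l6 was 2.07-fold and 2.68-fold higher. These 2 passed 2-fold in both tissues, against 1.39% of all genes. Usp18 was 2.55-fold and 1.91-fold higher, and Herc6 was just under 2-fold higher in lymph node and 2.49-fold in spleen. At least 2-fold higher in lymph node were 3 of the 5 (9.3% of all genes) and in spleen also 3 (4.12%). Uba7 moved least, at 1.06-fold in lymph node and 1.56-fold in spleen. The median log2 ratio of the 5 genes was 1.05 in lymph node and 1.32 in spleen, against -0.02 and 0.0 for all genes. The monocyte list was higher in lymph node, with 7 of 9 genes at least 2-fold up and 1 down, but not in spleen, with 0 up and 2 down, and its part in the result was not tested.

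The model put naive above Tregs by 2.59 ± 0.56 for Isg15, 1.23 ± 0.29 for Ube2l6, 1.13 ± 0.31 for Herc6, 1.13 ± 0.29 for Usp18 and 0.36 ± 0.36 for Uba7. No gene of the 5 passed the adjusted threshold, with a limma adjusted p of 0.963 for each, and 0% of all genes did. At an unadjusted p under 0.05 stood 4 of the 5, all but Uba7, against 3.42% of all genes. Without the naive spleen library Isg15 passed (3.59 ± 0.39, limma adjusted p = 0.0178), as 104 genes did in all, and without the naive lymph node library it was at 1.60 (limma adjusted p = 0.9997). In the authors' deposited table for lymph node, written as Treg over naive, Isg15 had -3.49 with p = 0.00175 and q = 0.487 and was marked, as 1.18% of loci were. No other gene of the 5 was marked in any of the authors' deposited tables, where 0.717% (Treg over un-injected, lymph node), 0.155% (the same in spleen) and 0.0779% (Treg over naive, spleen) of loci were.

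**Figure D3:**
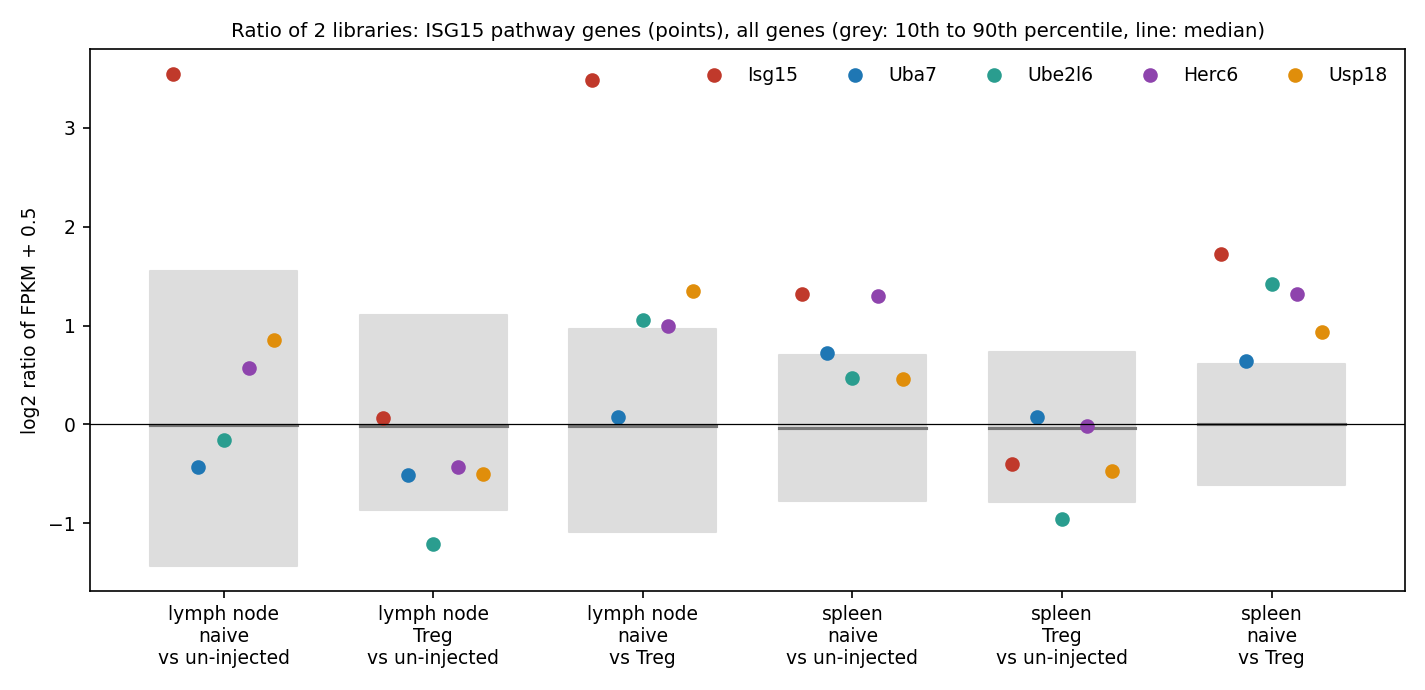
Log2 ratio of FPKM + 0.5 between 2 libraries for the 5 genes (points) in 6 comparisons, beside all 10818 filtered genes (grey band from the 10th to the 90th percentile, line at the median). Isg15 stands above the band in all 4 comparisons of naive with another library, and in naive against Treg all 5 points are above 0 (Uba7 in lymph node, at 0.08, turns to -0.09 with library totals).

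After Tregs Ube2l6 was the gene that differed most from the un-injected libraries. It was 2.31-fold lower in lymph node, the 1 gene of the 5 past 2-fold there (6.91% of all genes were lower by as much) though not with library totals (log2 ratio -0.92), and 1.94-fold lower in spleen, where 0 of the 5 passed (5.87% of all genes were lower by as much). Lower in both tissues were Ube2l6, Herc6 and Usp18, 3 of 5, against 28.1% of all genes. Usp18 was 1.41-fold lower in lymph node and 1.39-fold lower in spleen. Isg15 hardly differed in lymph node, at 1.05-fold higher, and was 1.32-fold lower in spleen. Uba7 and Herc6 were 1.42-fold and 1.35-fold lower in lymph node, and in spleen Uba7 was 1.05-fold higher and the log2 ratio of Herc6 was -0.02, which library totals turn to above 0. The model difference was -1.07 ± 0.29 for Ube2l6 (limma adjusted p = 0.938, unadjusted p = 0.0114) and between -0.48 and -0.17 for the others. The limma count was 0 of 5 adjusted and 1 of 5 unadjusted, against 0% and 4.7% of all genes. Library totals turn the small negative model differences of Isg15, Uba7 and Herc6 to 0.17, 0.12 and 0.096. These ratios share the un-injected libraries with the naive comparison.

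The 4 enzymes were higher in lymph node than in spleen dendritic cells in every state, whereas Isg15 was so after naive T cells and after Tregs. Each lymph node value was above each spleen value for Uba7, Ube2l6, Herc6 and Usp18, a pattern of 16.9% of all genes. In un-injected mice the lymph node level was 6.06-fold that of spleen for Ube2l6, 4.33-fold for Uba7, 4.10-fold for Herc6 and 2.78-fold for Usp18. At least 2-fold lower in spleen were these 4 among un-injected libraries (21% of all genes). Ratios after Tregs were 5.07-fold, 2.89-fold, 3.08-fold and 2.74-fold in the same order, and the same 4 passed 2-fold (13.4% of all genes). After naive T cells they were 3.92-fold, 1.95-fold, 2.47-fold and 3.64-fold, Uba7 fell short of 2-fold, and Isg15 joined at 4.12-fold (12.2% of all genes). After Tregs Isg15 was 1.22-fold higher in lymph node. Without T cells Isg15 was 1.13-fold higher in spleen, which turns to lower with library totals.

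The model difference of spleen from lymph node was -2.29 ± 0.23 for Ube2l6, which passed (limma adjusted p = 0.0438), as 0.444% of genes did in this direction. It was -1.61 ± 0.26 for Herc6 (limma adjusted p = 0.0604), -1.58 ± 0.23 for Usp18 (0.0581), -1.53 ± 0.29 for Uba7 (0.0735) and -0.71 ± 0.46 for Isg15 (0.37). The Isg15 difference was -0.052 without either naive library and -1.16 without either un-injected library. An unadjusted p under 0.05 was found for the 4 enzymes, against 25.3% of all genes. The direction of the 4 enzymes was negative without each library in turn, but their calls moved. Ube2l6 lost its call without the Treg lymph node library (limma adjusted p = 0.303) or the Treg spleen library (0.311), without a filter (0.127), with a filter at 5 FPKM (0.0521) and without the intensity trend (0.0604), and 4 of the 5 genes passed without the naive lymph node or without the naive spleen library, fits in which 1471 and 1449 genes passed in all against 74 with every library. An exact two-sided permutation test of the 3 lymph node against the 3 spleen values gave p = 0.1 for each of the 4 enzymes, the smallest that 20 splits allow, and 0.7 for Isg15. The migratory dendritic cell list moved with this result: 8 of its 8 genes were higher in all lymph node than in all spleen libraries, and none of them is at 0 in any. Within lymph node all 8 were at least 2-fold lower in the naive than in the un-injected library. The part of these cells in the enzymes' values was not tested.

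The level of Isg15 relative to its enzymes differed between libraries. Without transfer Isg15 stood in lymph node at 0.55 of Uba7, 0.27 of Ube2l6 and 2.40 times Herc6. In the naive lymph node library it stood at 8.70 times Uba7, 3.49 times Ube2l6 and 18.9 times Herc6. The Treg lymph node library lay between, at 0.82, 0.65 and 3.41. In spleen the 3 libraries were closer, with Isg15 at 1.96 to 4.14 times Uba7, 1.85 to 3.33 times Ube2l6 and 8.96 to 11.7 times Herc6. Isg15 made up 12.9%, 63.5% and 21.8% of the summed FPKM of the 5 genes in lymph node, against 44.7%, 56.7% and 45.03% in spleen. Relative to the protease Usp18 it was at 1.27, 8.23 and 1.88 in lymph node and at 4.06, 7.34 and 4.30 in spleen. No error can be put on these ratios.

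**Figure D4:**
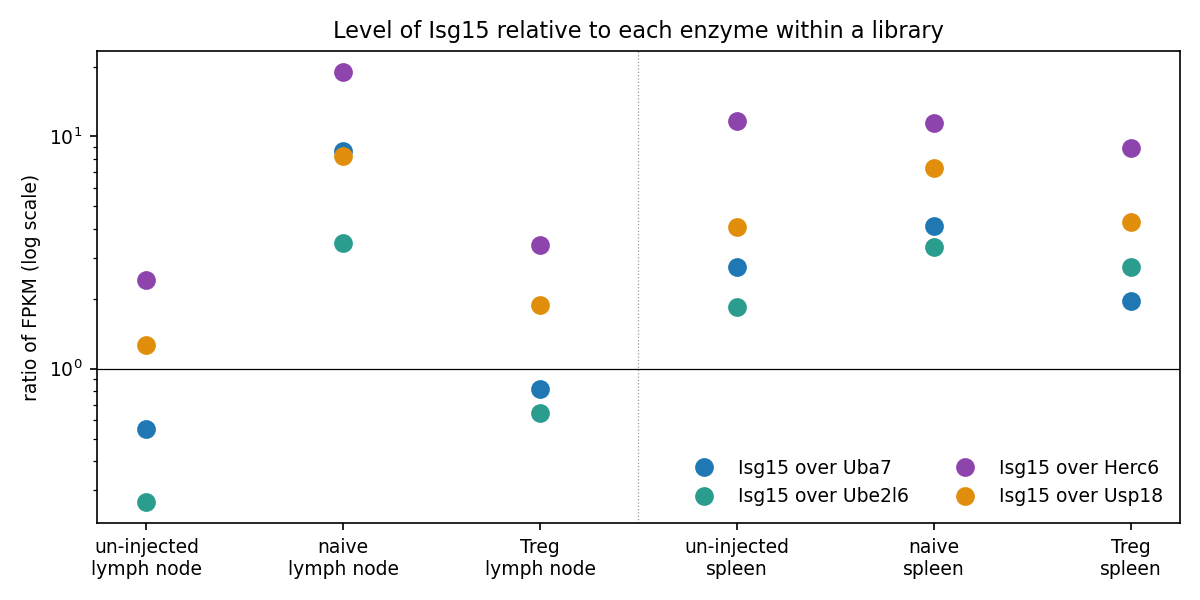
Ratio of the FPKM of Isg15 to that of each enzyme within each of the 6 libraries (log axis, line at 1). In lymph node the ratios to Uba7 and Ube2l6 pass from below 1 (0.55 and 0.27, un-injected) to 8.70 and 3.49 (naive), while in spleen all ratios stay above 1.

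Among the 4 enzymes the levels ran together over the 6 libraries, with Pearson's r of log2(FPKM + 1) between 0.87 (Uba7 and Usp18) and 0.96 (Herc6 and Usp18). Isg15 ran less closely with them, at r of 0.29 with Uba7, 0.45 with Ube2l6, 0.63 with Herc6 and 0.68 with Usp18. These values describe 6 libraries that share their scaling and fall into 2 tissues. The balance of E2 to E1 also moved, with Ube2l6 at 2.06, 2.49 and 1.27 times Uba7 in lymph node and at 1.48, 1.24 and 0.72 times in spleen.

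Genes of the same classes that serve ubiquitin and other modifiers differed less between tissues. None of the 12 other modifiers was 2-fold higher or lower in any transfer comparison, and their naive against un-injected model differences ran from -0.88 (Fau) to 0.37 (Ufm1), where Isg15 had 2.43. Among 8 other E1 enzymes past the filter 0 differed by 2-fold in any of the 9 comparisons. Uba1, the main E1 of ubiquitin, was at 95.4, 170 and 87.8 FPKM in lymph node and at 119, 111 and 102 FPKM in spleen, so that Uba7 stood at 1.59, 0.66 and 1.22 times Uba1 in lymph node and at 0.29, 0.52 and 0.36 times in spleen. For naive against un-injected the 21 other E2 enzymes ran from -0.58 (Ube2e3) to 0.51 (Ube2e1), so Ube2l6 lay within its class there. Ube2l3, a close relative of Ube2l6 that serves ubiquitin, was at 91.4, 64.2 and 44.4 FPKM in lymph node and at 65.9, 48.6 and 44.7 FPKM in spleen. For spleen minus lymph node the 21 other E2 enzymes ran from -0.78 (Ube2d1) to 2.95 (Ube2c), the 8 E1 enzymes from -0.38 to 0.46, the 4 other HERC genes from -0.60 to 0.08 and 6 other proteases linked to ISG15 from -0.57 to 0.43. The enzymes of ISG15 lay below each of these ranges, and 0 of the related genes passed the limma threshold. Usp13 and Uba1y were listed at 0 throughout. The differences between an ISG15 enzyme and its relatives were not tested.

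**Figure D5:**
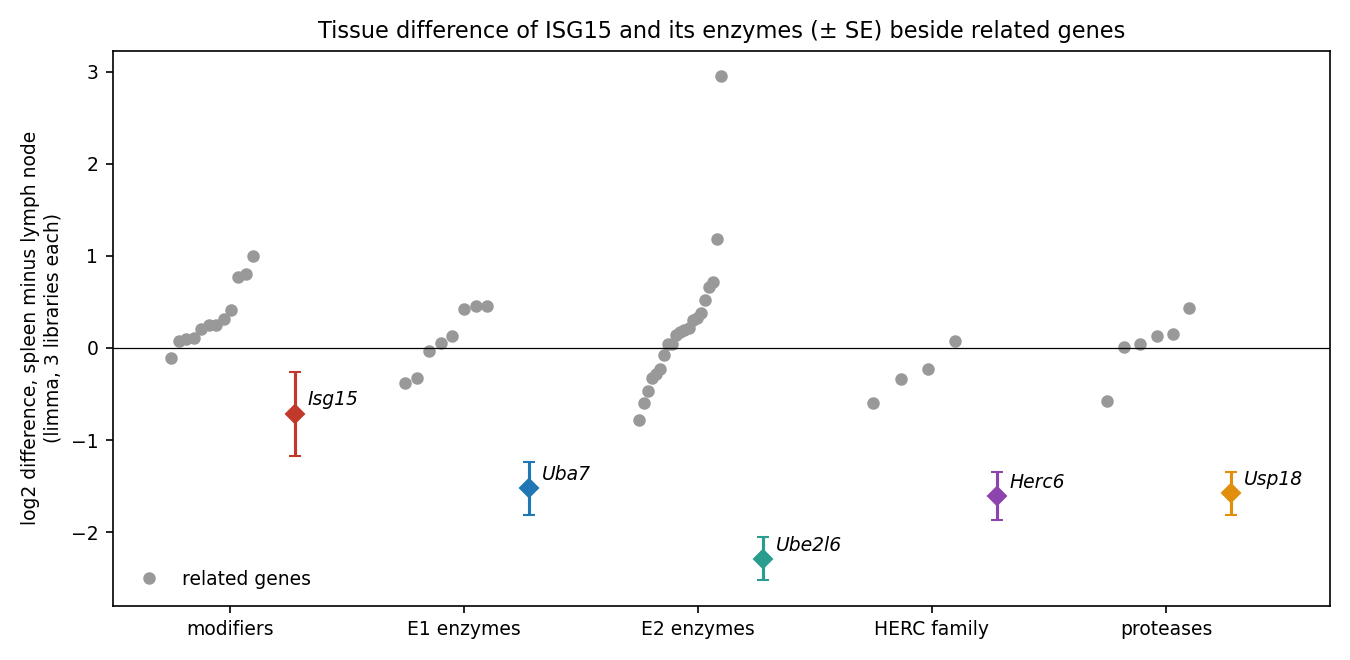
Model log2 difference of spleen minus lymph node (3 libraries each) for Isg15, Uba7, Ube2l6, Herc6 and Usp18 (diamonds, bars are ± SE) beside related genes of the same class (grey). Each diamond lies below the related genes of its class, with Ube2l6 lowest at -2.29.

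Other ligases that have been linked to ISG15, Arih1 and Trim25, ranged from 30.5 to 66.2 FPKM, and 0 of the 2 differed by 2-fold in any comparison. Of the USP18 partners and ISG15 receptor chains, 3 of 6 were at least 2-fold higher in the naive than in the un-injected lymph node library. That was so for 16.9% of all genes. In spleen 1 of 6 was, against 4.5% of all genes. Stat2, which holds USP18 at the receptor, was at 16.3, 76.9 and 24.8 FPKM in lymph node and at 10.98, 29.0 and 13.2 FPKM in spleen. Ifnar2, the receptor chain that USP18 binds, had 43.3, 86.2 and 61.5 FPKM in lymph node and 79.3, 82.8 and 83.7 FPKM in spleen. Itgal, an integrin chain reported as a receptor for free ISG15, was at 3.10, 114 and 14.3 FPKM in lymph node but at 111, 72.0 and 75.4 FPKM in spleen. It is also a general leukocyte integrin, and its part in the monocyte values was not tested.

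Upstream of the 5 genes, 14 of 18 genes of the signalling list passed the filter, and 4 were at least 2-fold higher in the naive than in the un-injected library of lymph node (16.9% of all genes) and 3 in spleen (4.5%). Tyk2, a kinase of the interferon receptor, was lower in lymph node, at 0.46-fold. None passed the limma threshold in any contrast. Irf7, a factor that amplifies type I interferon, was at 30.6, 976 and 110 FPKM in lymph node and at 137, 189 and 102 FPKM in spleen. Naive over un-injected was thus 31.4-fold for Irf7 in lymph node and 1.37-fold in spleen. Irf9 had 38.05, 68.5 and 37.7 FPKM in lymph node and 39.7, 63.0 and 37.9 FPKM in spleen. Irf1, an interferon-gamma target, had a tissue pattern like that of the enzymes, at 497, 415 and 215 FPKM in lymph node and 48.9, 124 and 52.6 FPKM in spleen. Of the ligands, Ifnb1 was listed at 0.599 FPKM and Ifng at 1.31 FPKM after naive T cells in lymph node, Ifng at 0.445 FPKM after Tregs there, and both at 0 elsewhere. Ifnl2 and Ifnl3 were listed at 0 in all 6, where 0 can be a missing estimate.

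The list of genes whose proteins are known to carry ISG15 had 15 that were measured. After naive T cells 6 of the 15 were at least 2-fold higher than without transfer in lymph node, against 16.9% of all genes. In spleen 5 of the 15 were, against 4.5% of all genes. None of the 15 was lower by as much in either tissue. Their median log2 ratios were 0.65 and 0.33, beside -0.00414 and -0.04 for all genes. Ddx58, the RNA sensor RIG-I, was at 7.33, 50.1 and 11.6 FPKM in lymph node and at 7.50, 19.3 and 9.30 FPKM in spleen. Ifit3, an antiviral protein, had 3.41, 111 and 9.84 FPKM in lymph node and 10.2, 30.7 and 12.1 FPKM in spleen. Mx1 RNA did not follow Isg15, at 141, 93.2 and 109 FPKM in lymph node and at 26.4, 27.7 and 21.5 FPKM in spleen. The tissue difference of Mx1 passed (-2.13 ± 0.25, limma adjusted p = 0.0473). It was the 1 gene of the list called in any contrast.

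The genes whose pattern was most like the mean of the 5 over the 6 libraries were taken by Pearson's r of log2(FPKM + 1) among 5616 genes that reach 5 FPKM and span at least 2-fold. The 10 nearest had r from 0.982 to 0.996 and were Iqsec2, Gbp2, Tmem106a, Il18bp, Gbp3, Rhbdf2, Clcn7, 2300009A05Rik, Rap2a and Zufsp. Gbp2, a guanylate-binding protein, was at 174, 660 and 92.4 FPKM in lymph node and at 14.7, 80.2 and 9.69 FPKM in spleen. Il18bp, the secreted inhibitor of interleukin 18, was at 32.2, 76.4 and 16.2 FPKM in lymph node and at 2.45, 12.8 and 0.98 FPKM in spleen. Both were, like the enzymes, higher in lymph node and, like Isg15, highest in the naive library of each tissue. All 10 genes were picked for likeness to the 5 genes in these same libraries. Their shared pattern therefore follows from the choice and is no separate result.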

How the data were processed

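Per the labels' protocols, RNA of the sorted cells was extracted with Trizol and sequenced from TruSeq libraries. The submitters' processing notes name RSEM, edgeR 3.16.5, mm10 and GRCm38.p4 without roles. The authors deposited 1 table of values for 6 libraries, taken here as FPKM, since the header names no unit and the values are fractional with unequal totals. Counts and depth are unknown, so no counting interval is given. The authors also deposited 6 comparison tables with p-values and q-values and a log2 fold change, per the file headers. The 38 symbols with several lines were summed. On log2(FPKM + 1) of 10818 genes an additive model (transfer, tissue) was fitted with limma 3.58.1 in R 4.3.3, with intensity trend, with adjustment over all genes at 0.05. Its 2 residual degrees of freedom measure how alike the tissues respond, not the spread between mice. Each limma SE and p rests on a variance moderated over all genes, not on the residuals of that gene alone. Pairs of libraries were compared by ratios of FPKM + 0.5 without a test. Library totals move the median log2 ratio of all genes by -0.31 to 0.36. Pseudocounts, filters, scalings, model terms and left-out libraries were varied. Genes named besides the 5 come from lists and from the 10 nearest patterns by r. The members and lists were chosen with earlier results of these data known. The lists are counted whole and the genes named from them were picked after their values were seen. Results for some genes of the lists are not reported here.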

Additional observations from a re-analysis of the deposited data

Results flagged for a closer look

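6 patterns stood out because the same contrast went opposite ways in its groups, and none of these differences was tested. After naive T cells Uba7 was lower in lymph node and higher in spleen than in un-injected mice, a difference of log2 ratios of -1.15 (lymph node minus spleen), and Ube2l6 likewise, at -0.63. After Tregs Isg15 was above un-injected in lymph node, by only 1.05-fold, and 1.32-fold below it in spleen, a difference of 0.46. Uba7 was lower in lymph node and higher in spleen after Tregs, a difference of -0.58. For lymph node over spleen, Isg15 was above 1 after naive T cells and below 1 in un-injected mice, a difference of 2.22. It was also above 1 after Tregs, a difference from un-injected of 0.46. That value is the Treg difference of Isg15 given above, written the other way, and is no separate result. With library totals the un-injected ratio of Isg15 turns above 1 too, at a log2 ratio of spleen over lymph node of -0.16. These contrasts share the un-injected libraries, of which the spleen library was high in neutrophil genes (838 FPKM summed) and the lymph node library in migratory genes (15063 FPKM).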

How the results depend on the processing

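For naive T cells against un-injected 0 of the 5 genes passed, and 0 to 1 when 1 library was left out (188 and 382 genes in all where 1 did, against 0). For naive against Tregs the range was also 0 to 1 (104 genes in all where 1 did), and for spleen against lymph node, with 1 as reported, 0 to 4 (up to 1471 genes in all, against 74). The tissue count was 0, with the call of Ube2l6 lost, without a filter, with a filter at 5 FPKM and without the intensity trend, and 2 without the transfer term (311 genes in all). The Treg comparison kept its count of 0 in all 14 alternatives. With library totals the count of genes 2-fold apart between the Treg and un-injected lymph node libraries went from 1 to 0, as Ube2l6 went to -0.92. Of the small model differences, 12 changed sign. With library totals Treg differences became 0.17 (Isg15), 0.12 (Uba7) and 0.096 (Herc6). With 1 library left out, naive against un-injected ran from -0.29 to 0.57 for Uba7 (-0.28 without naive spleen) and from -0.089 to 0.40 for Ube2l6 (-0.066 without un-injected spleen). Treg against un-injected ran from -0.84 to 0.50 for Isg15 (0.16 without Treg lymph node), from -0.64 to 0.21 for Uba7 and from -0.50 to 0.052 for Herc6. Naive against Treg ran from -0.066 to 0.78 for Uba7. Where a library is left out, the lone sample of its group is assumed to vary like the others, with 1 residual degree of freedom. With 1 library left out Isg15 ran from 1.43 to 3.42 for naive against un-injected, from 1.60 to 3.59 for naive against Treg and from -1.16 to -0.052 for spleen against lymph node. The cause of these changes was not tested. No paired analysis was possible because the labels carry no replicate numbers and each group has 1 library. Depth is unknown, so low values carry an error that cannot be given.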
